A study of Mus musculus with 2 samples.

Results

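Focal adhesion kinase (FAK, listed under its symbol *Ptk2*), its paralog Pyk2 (*Ptk2b*) and 8 genes for proteins that work with them at adhesions were followed in control and *Fak*-deficient Th17 cells. The genes were taken by symbol (*Ptk2*, *Ptk2b*, *Pxn*, *Bcar1*, *Nedd9*, *Rb1cc1*, *Tln1*, *Vcl*, *Crk* and *Crkl*), and all 10 are among the 23282 rows of the deposited tables. Naïve CD4 T cells had been isolated from the spleens of female mice with floxed *Fak* alleles (FAKfl/fl, whose age the labels do not give) and activated. The control group received the control retrovirus (an empty vector that the genotype label writes as WT), and the other group a retrovirus carrying Cre recombinase (RV-Cre), which removes the floxed part of *Fak*. Both groups therefore carried the floxed alleles, and both were cultured for 3 days with plate-bound anti-CD3 at 10 μg/ml, anti-CD28 at 5 μg/ml, IL-6 at 50 ng/ml, TGFβ1 at 1 ng/ml, TNFα at 1 ng/ml, IL-1β at 2 ng/ml, and antibodies to IFNγ and IL-4 at 5 μg/ml each, before GFP+ cells were sorted. Each group had 1 library. Cells that carry Cre but no floxed allele were not analysed here, so effects of the recombinase itself and of *Fak* loss cannot be told apart.

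FAK is a cytosolic tyrosine kinase that integrins recruit and activate where a cell grips its matrix, and Pyk2 is the only other member of its family, prominent in blood cells and able to respond to calcium. Both bind paxillin (*Pxn*), a scaffold of adhesions, and the Cas proteins (*Bcar1* and *Nedd9*), whose phosphorylated tyrosines dock the adaptors *Crk* and *Crkl*. Talin (*Tln1*) switches integrins on and vinculin (*Vcl*) ties talin to actin, while *Rb1cc1* (FIP200) binds and restrains both kinases and is also a subunit of the complex that starts autophagy. T cells use these proteins downstream of the integrin LFA-1 and of the T cell receptor.

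QuantSeq reads cover the 3′ ends of transcripts, and raw read counts per gene were deposited. Counts summed to 13799264 in control cells and 12305010 in RV-Cre cells, and the 10 genes held 7827 and 9367 of these reads. Levels are given as reads and as reads per 1000000 counted reads (CPM), without division by transcript length because each transcript gives reads from its end only. Ratios are RV-Cre over control after TMM scaling, and log2 ratios are differences of log2(normalized reads + 1). Intervals are exact 95% Clopper-Pearson intervals of the read split. Such intervals describe counting error between 2 single libraries and not the spread of a condition, since there are no replicates and no test was run. *Rn45s*, the ribosomal RNA gene, took 8.50% of the control and 14.6% of the RV-Cre reads.

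The label of the cells was checked with markers. All 9 CD4 T cell markers were past the expression minimum, a log2 value of at least 4 (15 normalized reads) in at least 1 library. They summed to 26986 reads in the control and 33342 in the RV-Cre library. That minimum was also passed by 4 of 6 CD8 T and NK markers and by 4 of 6 B cell markers. Passing it therefore does not by itself identify the cells. The CD4 T cell markers were not level between the libraries: *Cd3d* and *Cd3e* had ratios of 2.30 and 2.24, and *Cd5* 0.504. Of the 6 Th17 markers 5 passed the minimum, 4 of them at least 2-fold lower with RV-Cre. Over all genes past the minimum, 12.3% were that much lower. Summed reads of 6 CD8 T and NK cell markers were 710 and 942 in the control and RV-Cre libraries, with members on both sides. *Cd8a* had 322 and 580 reads and *Cd8b1* 122 and 274, whereas *Klrd1* had 240 and 57. The 6 B cell markers summed to 51 and 117 reads, among them *Cd79a* with 6 and 30. The 7 fibroblast and stroma markers summed to 14 and 80 reads, of which *Col1a1* held 10 and 66. The B cell factor *Pax5*, the granulocyte gene *Mpo* and the stromal receptor *Pdgfrb* had 0 reads in both libraries.

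What the *Ptk2* count can see is set by position. *Ptk2* lies at chr15:73205102-73423280 on the minus strand of GRCm38, the assembly behind the mm10 build that the labels name. The study's RT-qPCR primers for *Fak* match its longest coding transcript in GENCODE M21 (4675 bases, 34 exons) and, exactly, no transcript of another gene. The product is shown because it lies in the 3′ part of the transcript, with the primer sites in capitals:

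Ptk2 RT-qPCR product: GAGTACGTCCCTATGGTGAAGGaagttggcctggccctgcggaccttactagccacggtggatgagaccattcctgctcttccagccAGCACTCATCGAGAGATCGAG

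These 108 bases are coding, begin in exon 32 and end 6 bases into exon 34, the last exon, at chr15:73206255-73210762 with introns included. They stop 1153 bases before the transcript's end, and the last exon is 1159 bases long. The product therefore lies almost wholly upstream of the last exon. Whether any of the 3′ reads fall within it was not examined. The sources used here do not say which exons are floxed. A 3′ read cannot tell an intact from a recombined transcript unless the end itself is removed, nor FAK from the shorter kinase-free product FRNK of the same gene, so the count checks the amount of *Ptk2* RNA and not the deletion itself.

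*Ptk2* had 110 reads in control cells, or 7.97 CPM (95% interval 6.55 to 9.61), and 31 reads in RV-Cre cells, or 2.52 CPM (95% interval 1.71 to 3.58). Its ratio was 0.318 (95% interval 0.206 to 0.477), the lowest among the 9 genes past the minimum, and its log2 ratio was -1.62. The interval lies wholly below a 2-fold decrease. *Ptk2* RNA was lower in the library labelled *Fak*-deficient, though still detected. Of the 12112 genes past the minimum, 5.21% had a log2 ratio as low or lower. Low counts spread wider, and among the 2008 genes whose log2 values averaged 4 to 6, the class of *Ptk2*, 19.0% had dropped to 0.5 of the control value or less and 28.8% had doubled.

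*Ptk2b*, at chr14:66153257-66281052, had 1779 reads (129 CPM) in control cells and 1731 reads (141 CPM) in RV-Cre cells. The ratio was 1.10 (95% interval 1.03 to 1.17), close to 1 and just above counting error. Pyk2 RNA was the more abundant of the pair in both libraries, with 16.2 reads for each *Ptk2* read in control cells and 55.8 in RV-Cre cells. *Ptk2* made up 5.82% of the reads of the pair in control cells (95% interval 4.81 to 6.98) and 1.76% in RV-Cre cells (95% interval 1.20 to 2.49), and the intervals do not overlap. The ratio of the odds of a *Ptk2* read, RV-Cre over control, was 0.290 (exact conditional 95% interval 0.187 to 0.438), a value that no scaling changes.

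**Figure D1:**
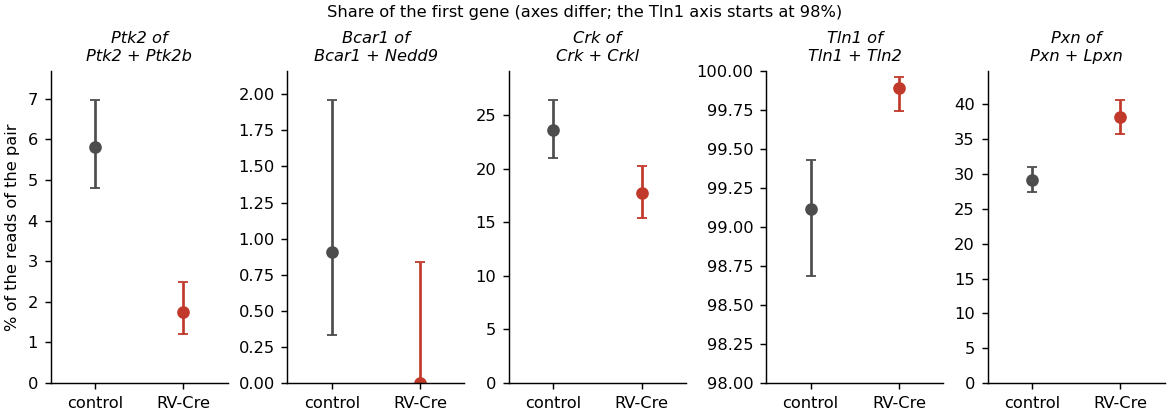
Share of the first gene among the reads of each pair, in percent, for the control and RV-Cre libraries; points are the shares, bars are exact 95% intervals (counting error only), and the axes differ between panels, that of *Tln1* starting at 98%. *Ptk2* goes from 5.82% to 1.76% of its pair, *Crk* from 23.7% to 17.8% and *Pxn* from 29.2% to 38.2%.

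Among the 9 genes past the minimum, *Ptk2* alone was at least 2-fold lower and 0 were as much higher. Over all genes past the minimum, changes of that size made up 12.3% (lower) and 14.2% (higher), 26.5% in all. They were rarer among better covered genes. From a mean log2 value of 6 to 8, where *Vcl* and *Crk* lie, 14.5% were that much lower and 9.48% that much higher. From 8 to 10, the class of *Pxn*, *Nedd9*, *Rb1cc1* and *Crkl*, the shares were 8.6% and 4.05%, and from 10 to 12, the class of *Ptk2b* and *Tln1*, they were 6.24% and 2.97%. A ratio of 1 lay outside the interval for 7 of the 9, 2 lower (*Ptk2* and *Nedd9*) and 5 higher (*Ptk2b*, *Rb1cc1*, *Tln1*, *Vcl* and *Crkl*). That share is near the background of 74.7% over all genes (38.1% lower and 36.7% higher), so it says nothing particular of these genes. The median log2 ratio of the 9 was 0.13, against -0.01 over all genes past the minimum. *Bcar1* did not pass the minimum and stands outside these counts.

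**Figure D2:**
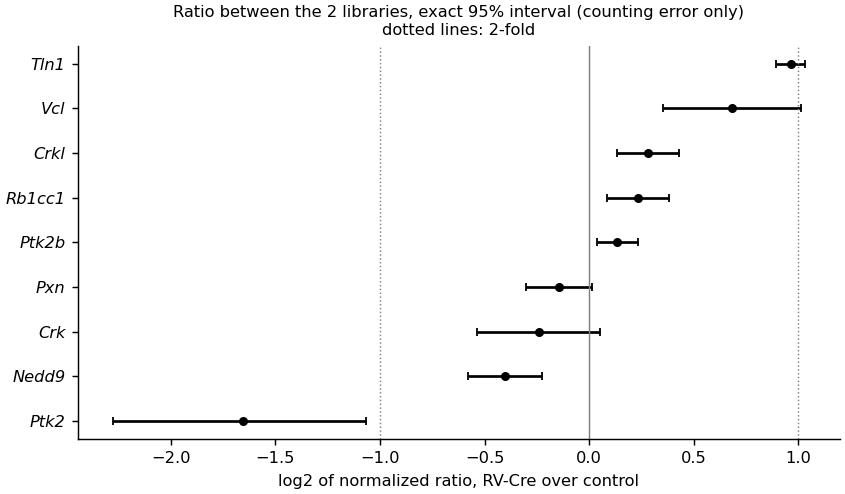
log2 of the normalized ratio between the RV-Cre and control libraries for the 9 genes past the expression minimum, with exact 95% intervals (counting error only) as bars and dotted lines at 2-fold. *Ptk2*, with a ratio of 0.318, is the only gene whose interval lies beyond 2-fold, and those of *Tln1* and *Vcl* reach the 2-fold line on the other side.

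The Cas scaffolds, which turn kinase activity at adhesions into docking sites for Crk, were represented by *Nedd9* alone. *Nedd9* (also HEF1 or Cas-L, the lymphocyte member) lies at chr13:41309581-41487362 and had 656 reads (47.5 CPM) in control cells and 440 reads (35.8 CPM) in RV-Cre cells, a ratio of 0.757 (95% interval 0.669 to 0.855). Its log2 ratio of -0.40 is lower beyond counting error and stayed from -0.41 to -0.31 under the other settings except scaling to *Gapdh*. That scaling brought it to 0.016, almost no difference, so the decrease depends on the scaling. *Bcar1* (Cas, at chr8:111710474-111743809) had 6 reads in control cells, or 0.435 CPM, and 0 in RV-Cre cells, where the exact 95% interval reaches up to 0.300 CPM. The 95% interval of its ratio runs from 0 to 0.958. These few reads do not separate it from *Nedd9*: *Bcar1* made up 0.906% of the reads of the pair in control cells (95% interval 0.333 to 1.96) and 0 of 440 in RV-Cre cells (upper bound 0.835%), and the interval of the odds ratio, from 0 to 1.27, includes 1. Of the remaining Cas relatives, *Cass4* also had 6 and 0 reads, and *Efs* had 0 in both. Summed over these 4 scaffolds, 668 and 440 reads gave a ratio of 0.743 (95% interval 0.658 to 0.840), which is set by *Nedd9*.

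*Pxn* (paxillin, at chr5:115506676-115555987) had 748 reads (54.2 CPM) and 600 reads (48.8 CPM) in the control and RV-Cre libraries. The ratio of 0.905 (95% interval 0.812 to 1.01) was not distinguishable from 1 at this depth, and its log2 ratio of -0.14 became 0.27 with scaling to *Gapdh*. Its relative *Lpxn* (leupaxin), which leukocytes express and which binds Pyk2, moved more: it had 1815 and 970 reads and a ratio of 0.603 (95% interval 0.557 to 0.652). *Pxn* was 29.2% of the reads of the pair in control cells (95% interval 27.4 to 31.0) and 38.2% in RV-Cre cells (95% interval 35.8 to 40.7), with an odds ratio of 1.501 (95% interval 1.31 to 1.72). Paxillin stayed the less abundant of the pair in both libraries.

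The adaptors *Crk* and *Crkl*, SH2-SH3 proteins that dock on phosphorylated paxillin and Cas and recruit exchange factors for small GTPases, differed from each other in their ratios. *Crk* (chr11:75679259-75706908) had 228 reads (16.5 CPM) in control cells and 171 reads (13.9 CPM) in RV-Cre cells, a ratio of 0.846 whose interval (0.690 to 1.04) includes 1, and its log2 ratio of -0.24 became 0.18 with scaling to *Gapdh*. *Crkl* (chr16:17451987-17487434) had 736 reads (53.3 CPM) and 792 reads (64.4 CPM), a ratio of 1.21 (95% interval 1.10 to 1.34). The difference between them does not depend on the scaling. *Crk* gave 23.7% of the reads of the pair in control cells (95% interval 21.0 to 26.5) and 17.8% in RV-Cre cells (95% interval 15.4 to 20.3), an odds ratio of 0.697 (95% interval 0.554 to 0.876).

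*Tln1*, the integrin-activating talin of blood cells, had the most reads of the 10 genes in both libraries and the highest ratio. It lies at chr4:43531519-43562691 and had 2687 reads (195 CPM) in control cells and 4638 reads (377 CPM) in RV-Cre cells. The ratio was 1.95 (95% interval 1.86 to 2.04), and the log2 ratio of 0.96 was just under the 2-fold line. It crossed the line under some scalings, at 1.05 with library totals taken without *Rn45s*, 1.07 with quantile normalization and 1.38 with scaling to *Gapdh*. Of all genes past the minimum, 14.8% had a log2 ratio as high or higher. The other talin gene, *Tln2*, had 24 and 5 reads, so *Tln1* was 99.1% of talin reads in control cells (95% interval 98.7 to 99.4) and 99.9% in RV-Cre cells (95% interval 99.7 to 99.97), with an odds ratio of 8.28 (95% interval 3.09 to 27.8).

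*Vcl* (vinculin, at chr14:20929398-21033676) had 133 reads (9.64 CPM) in control cells and 189 reads (15.4 CPM) in RV-Cre cells. Its ratio was 1.60 (95% interval 1.28 to 2.02) and its log2 ratio 0.68. The reads are uncertain in origin. At its 3′ end the gene overlaps, by 2235 bases, the vesicle adaptor gene *Ap3m1* on the opposite strand, which had 444 and 396 reads. Every 50-base word in the last 1000 bases of the *Vcl* transcript also occurs in an *Ap3m1* transcript read on the other strand. Whether reads were counted by strand is not given in the sources used here, and reads of the pair cannot be told apart without it. For the other 9 genes, no 50-base word of the last 1000 bases was found in a transcript of another gene.

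Talin and vinculin are abundant in platelets and in myeloid cells, whose markers were read beside them. The 5 platelet and megakaryocyte markers summed to 91 reads in control cells and 190 in RV-Cre cells, with 3 of 5 past the minimum. *Pf4* had 52 and 99 reads, *Itga2b* 27 and 38, *Ppbp* 7 and 39, *Gp1ba* 4 and 14 and *Gp9* 1 and 0. The 8 myeloid markers summed to 127 and 496 reads, with 5 of 8 past the minimum. *Marco* held 5 and 289 of these, and the sum without it was 122 and 207. *Csf1r* was also higher, with 16 and 110 reads and a ratio of 7.76 (95% interval 4.57 to 14.05), while *Lyz2* was lower, with 22 and 7 reads. The remaining myeloid markers were *Cd68* with 63 and 58 reads, *Cd14* with 14 and 21, *Itgam* with 7 and 3, *Adgre1* with 0 and 8 and *Mpo* with 0 in both. The part of such cells in the *Tln1* and *Vcl* values was not tested. In such sorted bulk cells, fewer cells of a type and less RNA per cell cannot be told apart.

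*Rb1cc1*, the inhibitor of both kinases, lies at chr1:6206197-6276648 and had 744 reads (53.9 CPM) in control cells and 775 reads (63.0 CPM) in RV-Cre cells, a ratio of 1.18 (95% interval 1.06 to 1.30). Its partners in the ULK complex, which starts autophagy, were 4 genes that all passed the minimum, with a median log2 ratio of 0.07. Of these, 0 changed 2-fold or more, against 26.5% of all genes past the minimum. *Atg101* had 580 and 591 reads, with an interval of its ratio from 1.02 to 1.29. *Ulk1* had 394 and 336 reads, with an interval that includes 1, from 0.830 to 1.12. *Atg13* had 314 and 338 reads and a log2 ratio of 0.28. The lowest ratio of these was that of *Ulk2*, named after its values were seen, at 0.688 (95% interval 0.571 to 0.827) from 310 and 189 reads.

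**Figure D3:**
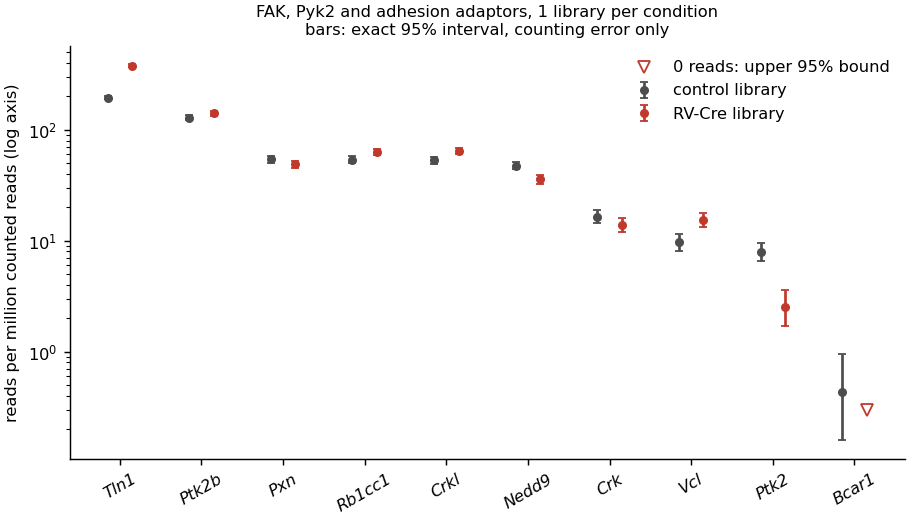
Level of each of the 10 genes in the control and RV-Cre libraries, in CPM on a log axis; bars are exact 95% intervals (counting error only) and the open triangle is the upper bound for the 0 *Bcar1* reads. *Tln1* is highest in both libraries, at 195 and 377 CPM, and *Ptk2* is second lowest in both.

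The order of levels was much the same in both libraries. In the control library it ran from *Tln1* through *Ptk2b*, *Pxn*, *Rb1cc1*, *Crkl*, *Nedd9*, *Crk*, *Vcl* and *Ptk2* to *Bcar1*. Neighbours that did not differ beyond counting error were *Pxn* and *Rb1cc1*, *Rb1cc1* and *Crkl*, and *Vcl* and *Ptk2*. In the RV-Cre library *Crkl* and *Rb1cc1* stood above *Pxn*, and *Vcl* and *Crk* could not be separated, with 189 and 171 reads. *Ptk2*, which was level with *Vcl* in control cells, was there well below it, with 31 reads. Among all genes past the minimum, *Ptk2* had more reads than 30.8% of them in control cells and than 14.5% in RV-Cre cells, whereas *Ptk2b* stood above 87.3% and 89.7%.

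**Figure D4:**
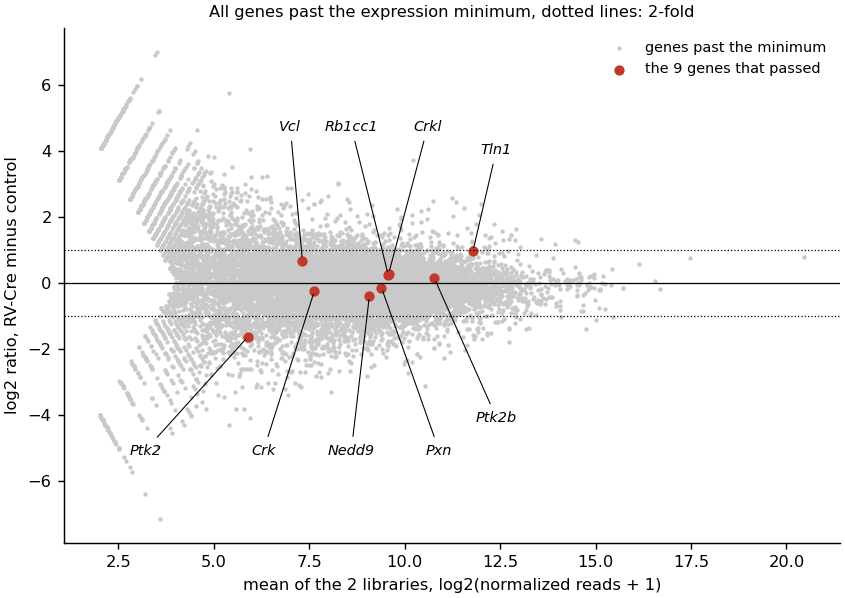
All 12112 genes past the expression minimum (grey), with the mean of both libraries as log2(normalized reads + 1) on the horizontal axis and the log2 ratio of RV-Cre minus control on the vertical axis; the 9 genes described here are in red and dotted lines mark 2-fold. *Ptk2* at -1.62 lies below the lower line, *Tln1* at 0.96 just under the upper one, and the others between.

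The kinases and phosphatases that act on FAK and its partners were then read as a list of 12 genes. Past the minimum were 11, of which 2 had at least doubled and 0 were 2-fold lower, with a median log2 ratio of 0.43. Over all genes past the minimum these shares were 14.2% and 12.3%. The counts of the lists that follow stand beside the same shares. *Ptprc* (CD45), the phosphatase that keeps Src kinases ready to act, had 8181 and 18174 reads and a ratio of 2.51 (95% interval 2.44 to 2.57). *Lyn*, a Src kinase of B and myeloid cells, had 26 and 88 reads and a ratio of 3.82 (95% interval 2.44 to 6.17), and the part of those cells, whose marker sums are given above, was not tested. *Lck*, the main Src kinase of T cells, had 4959 and 4839 reads and a ratio of 1.10 (95% interval 1.06 to 1.15), and *Csk*, which switches Src kinases off, had 2522 and 3104 reads and a log2 ratio of 0.47.

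Of 16 relatives and partners of paxillin and Cas, 11 passed the minimum, 1 had at least doubled, 0 were 2-fold lower, and the median log2 ratio was 0.22. The one higher was *Pik3r1*, a regulatory subunit of PI3 kinase, with 930 and 1820 reads and a ratio of 2.21 (95% interval 2.04 to 2.39). *Grb2*, the adaptor between phosphorylated FAK and Ras signalling, had 3239 and 3648 reads and a log2 ratio of 0.35.

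The effectors of Crk spread in both directions. All 12 passed the minimum, 3 had at least doubled and 2 were at or below 0.5 of the control value, and the median log2 ratio was 0.03, or -0.10 with a log2 minimum of 6. *Dock2*, the Rac exchange factor of lymphocytes, had 1166 and 2857 reads and a ratio of 2.77 (95% interval 2.58 to 2.96). Its partner *Elmo1* went the other way, with 750 and 290 reads and a ratio of 0.436 (95% interval 0.380 to 0.500). The GTPase *Rap1b*, which acts on integrins through talin, had 6628 and 2911 reads and a ratio of 0.496 (95% interval 0.474 to 0.518). The ubiquitin ligase *Cblb* had 88 and 198 reads and a log2 ratio of 1.33, and *Dock1* 26 and 56 reads and a log2 ratio of 1.25. The GTPases *Rac1* and *Rac2* had log2 ratios of 0.15 and 0.81.

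Of 19 integrin activators and actin linkers, 15 passed the minimum, 3 had at least doubled, 1 was 2-fold lower or more, and the median log2 ratio was 0.28. *Flna* (filamin A), which competes with talin for integrin tails, had 1917 and 3705 reads and a ratio of 2.18 (95% interval 2.06 to 2.31). *Rassf5*, which carries Rap1 signals to LFA-1, had 2112 and 3996 reads and a ratio of 2.14 (95% interval 2.02 to 2.25). *Tns3* had only 2 and 17 reads, with an interval of its ratio from 2.28 to 85.6, and the gene at least 2-fold lower was *Tln2*, with a log2 ratio of -1.90. The actin linkers *Actn4*, *Ilk* and *Tes*, the 3 of the list with most reads summed over both libraries, had log2 ratios of -0.66, 0.28 and 0.39. *Fermt3* (kindlin-3), which works with talin on integrins and was singled out after its values were seen, had 2782 and 1363 reads and a ratio of 0.553 (95% interval 0.518 to 0.590).

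Over all 63 genes of these lists, 53 passed the minimum. Of these, 9 were at least 2-fold higher and 3 as much lower, against 14.2% and 12.3% of all genes. The median log2 ratio was 0.22.

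**Figure D5:**
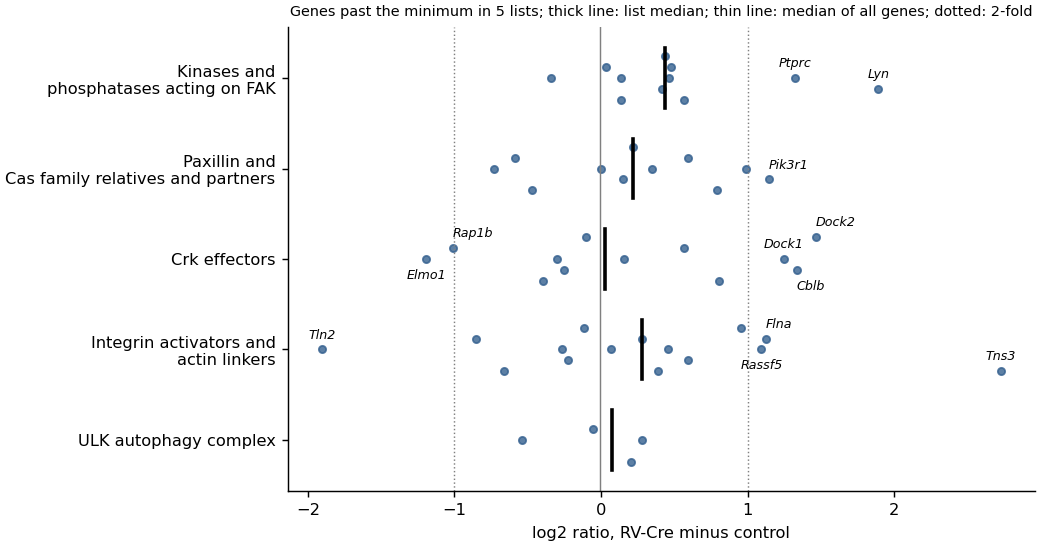
log2 ratio, RV-Cre minus control, of each gene past the minimum in the 5 lists; thick lines are list medians, the thin line is the median of all genes (-0.01), dotted lines mark 2-fold, and genes beyond 2-fold are named. The list medians lie from 0.03 to 0.43, and the Crk effectors have genes beyond 2-fold on both sides.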

How the data were processed

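Raw read counts per gene symbol were deposited by the authors, without normalization, for 1 control and 1 RV-Cre library made with a QuantSeq kit from 500 ng of total RNA. The submitters' processing notes name bcl2fastq 2.20.0.422, Bowtie2, bedtools and build mm10, with no role or order. The annotation, read filters and strand setting are not given in the sources used here. Of 23282 rows, 79 share a symbol with another row, and none of the genes reported is among them.

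Counts were scaled with TMM (edgeR 4.0.16, R 4.3.3), whose size factors were 1.06 for the control and 0.941 for the RV-Cre library. Log2 ratios used a pseudocount of 1. The expression minimum was a log2 value of 4 in either library, and a change meant 2-fold or more on that scale. Intervals were computed with scipy 1.17.1. Odds ratios of pairs used the exact conditional interval. Positions and transcripts came from GENCODE M21 (GRCm38). The primer sequences came from the study's supplement. With 1 library per group, no test was run. The procedure was tested on simulated counts that held counting error only, so this check cannot cover the spread between cultures. The genes, lists and settings were chosen with earlier results of these data known. The genes named from each list were the 3 with most reads and up to 4 in each direction of the largest changes of at least 2-fold.
Alternatives were library totals with and without *Rn45s*, quantile normalization (limma 3.58.1), *Gapdh* scaling, median centring, size factors from DESeq2 1.42.0, pseudocounts of 0.1 and 10, and other minimums, folds and intervals.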

Additional observations from a re-analysis of the deposited data

How the results depend on the processing

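No paired analysis was possible because each group had 1 library. *Ptk2* was at least 2-fold lower under all 13 settings tried, with log2 ratios from -1.74 (quantile normalization) to -1.21 (scaling to *Gapdh*). The count of genes at least 2-fold lower was 1 under all settings except without a minimum, where *Bcar1* made it 2. The count at least 2-fold higher went from 0 to 1 with library totals without *Rn45s* and with quantile normalization (*Tln1*), and to 2 with scaling to *Gapdh* (*Tln1* and *Vcl*). With the cut-off lowered to a fold of 1.5, *Tln1* and *Vcl* were counted as higher with their ratios unchanged. Of 80 log2 ratios recomputed for the 10 genes, 69 stayed inside the counting interval and 3 changed sign, those of *Pxn* (0.27), *Nedd9* (0.016) and *Crk* (0.18) with scaling to *Gapdh*. *Gapdh* itself had a log2 ratio of -0.42, so this scaling raises the median over all genes by 0.42. With it *Ptk2b* was at 0.55, *Rb1cc1* at 0.65, *Tln1* at 1.38, *Vcl* at 1.09 and *Crkl* at 0.70, and the list medians were 0.85 (kinases and phosphatases), 0.63 (paxillin and Cas relatives), 0.44 (Crk effectors), 0.70 (integrin activators) and 0.49 (ULK complex). *Ptk2b* was at 0.24 with quantile normalization, and *Tln1* at 1.07 with it and at 1.05 without *Rn45s*. Without a minimum the integrin activator median was 0.17.

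Over all genes, 1720 had at least doubled and 1491 were as much lower. These became 2960 and 780 with scaling to *Gapdh*, 3265 and 2441 without a minimum, 2847 and 2777 at a fold of 1.5 and 1008 and 669 at a fold of 3. The count higher was 734 with a log2 minimum of 6 and 758 with a minimum of 4 in both libraries. With a 99% interval a ratio of 1 stayed outside for 7 of the 9 genes, as with 95%.

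Low read counts limit what *Bcar1*, *Cass4*, *Tln2* and *Tns3* can show, and the absence of replicates limits all values.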

Other observations

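Within-library shares, which no scaling changes, were also read for pairs in the lists, chosen after their values were seen. *Dock2* and *Elmo1*, which work together as a Rac exchange factor, showed the widest shift of the 5 pairs read. They had the highest and the lowest log2 ratio of the Crk effectors, so a wide shift was fixed by that choice. *Dock2* was 60.9% of the reads of the pair in control cells and 90.8% in RV-Cre cells, an odds ratio of 6.33 (95% interval 5.43 to 7.40). *Tln1* was 49.1% of its summed reads with *Fermt3*, the kindlin of blood cells, in control cells and 77.3% in RV-Cre cells, an odds ratio of 3.52 (95% interval 3.25 to 3.82).

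Shares also shifted between close paralogs. The alpha-actinin *Actn1* was 34.3% of its summed reads with *Actn4* in control cells and 55.4% in RV-Cre cells, an odds ratio of 2.38 (95% interval 2.24 to 2.54). *Rap1a* was 27.3% and 38.2% of its pair with *Rap1b*, and *Rac1* 51.4% and 40.2% of its pair with *Rac2*. All intervals cover counting error only.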
